A study of Homo sapiens with 7 samples.

Results

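SPOCK1, PRICKLE1, SLITRK4 and SULF2 are 4 of the 13142 genes with values in an RNA-seq study of the histone methyltransferase ASH1L in a thyroid cancer line. They were chosen from the measured levels themselves: each had very low levels in the wild-type libraries and was switched on in several ASH1L knockout clones. The values below that rest on that choice are therefore a description and carry no test. All 4 genes also passed the filter on low values used for the fits across genes, and they passed it through the clones in which they are high.

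SPOCK1 encodes testican-1, a secreted proteoglycan of the SPARC family that sits in the extracellular matrix and restrains certain cathepsins and membrane-type matrix metalloproteinases. PRICKLE1 is a cytoplasmic LIM-domain protein of the planar cell polarity pathway, the branch of Wnt signalling that orients cells within a sheet, and it also binds the transcriptional repressor REST. SLITRK4 is a transmembrane leucine-rich-repeat protein known from neurons, where proteins of its family bind receptor tyrosine phosphatases at synapses. SULF2 is an extracellular endosulfatase that trims sulfate groups from heparan sulfate chains and so changes which growth factors and Wnt ligands those chains hold.

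The tested libraries came from 4 ASH1L knockout (KO) clones of BHT-101, an anaplastic thyroid carcinoma line, with 1 library per clone. KO1 carried a stop codon after residue 413, KO2 after residue 610 and KO3 after residue 2129, on both alleles in each, and KO4 carried stops after residues 2169 and 2174. They were set against 3 biological replicates (WT1 to WT3) of the parental cells with an intact gene. Each clone was sequenced once, so an effect of the mutation and a difference between clones cannot be told apart. ASH1L mRNA itself stood at 2.69, 2.54, 2.42 and 3.74 log2 RPKM in KO1 to KO4, against 3.34, 3.30 and 3.22 in WT1 to WT3, where RPKM is reads per kilobase of exon, scaled to library size. That level does not check the labels, since a stop codon need not lower the transcript. Effective library sizes were 44.0 to 70.4 M reads in the clones and 56.4 to 63.0 M in WT, and whole read numbers could be recovered for 11411 genes, all 4 members included.

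For 3 of the 4 genes a promoter window, from 250 bases before to 50 bases after a transcript start, was available from RefSeq (GRCh38.p14, minus strand in each case). The windows are shown because these genes were near silent in WT and high in several clones, though not in the same ones. Where a gene had several starts, the window with the most CG dinucleotides is printed. Capitals mark CG dinucleotides, the sites of DNA methylation, which was not measured here. The windows lie at chr12:42483566-42483865 for PRICKLE1, chrX:143635042-143635341 for SLITRK4 and chr20:47785432-47785731 for SULF2.
PRICKLE1: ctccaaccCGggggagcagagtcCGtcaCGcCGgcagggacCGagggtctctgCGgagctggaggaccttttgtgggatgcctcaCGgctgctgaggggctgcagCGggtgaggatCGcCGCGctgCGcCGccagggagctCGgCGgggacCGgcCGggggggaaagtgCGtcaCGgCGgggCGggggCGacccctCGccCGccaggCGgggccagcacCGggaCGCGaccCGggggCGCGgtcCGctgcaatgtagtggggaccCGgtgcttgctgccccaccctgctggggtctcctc
SLITRK4: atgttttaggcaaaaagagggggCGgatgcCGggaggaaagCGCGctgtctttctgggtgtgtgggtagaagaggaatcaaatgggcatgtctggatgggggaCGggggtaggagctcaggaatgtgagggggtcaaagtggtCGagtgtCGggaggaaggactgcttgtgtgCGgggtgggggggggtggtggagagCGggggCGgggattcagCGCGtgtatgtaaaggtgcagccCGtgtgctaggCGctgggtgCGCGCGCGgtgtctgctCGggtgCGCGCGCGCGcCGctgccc
SULF2: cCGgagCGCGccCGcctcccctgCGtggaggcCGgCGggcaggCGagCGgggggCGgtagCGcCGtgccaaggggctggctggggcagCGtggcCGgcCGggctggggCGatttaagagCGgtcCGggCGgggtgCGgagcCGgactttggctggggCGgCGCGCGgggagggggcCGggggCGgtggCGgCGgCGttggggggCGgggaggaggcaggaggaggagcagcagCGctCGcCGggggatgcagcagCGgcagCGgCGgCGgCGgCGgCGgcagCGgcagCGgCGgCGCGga
The PRICKLE1 window holds 33 CG dinucleotides, the SLITRK4 window 25 and the SULF2 window 46, beside a median of 14 over 35116 promoter windows of the same length. These 3 windows hold more CG than 82.8%, 68% and 97.1% of all windows in that order. For SLITRK4 and SULF2 the printed window was picked for its CG count, and the windows it is ranked against were not. The other SLITRK4 starts had 6 and 25 CG dinucleotides, and the other SULF2 starts had 15, 21 and 5. Measured from the upstream end of the annotated gene span, the printed PRICKLE1 start lies 106.7 kb inside. The annotation thus also places a start far upstream of the PRICKLE1 window. The printed starts of SLITRK4 and SULF2 lie 0.686 and 1.135 kb inside. On both strands the GC box GGGCGG occurred 1 time in the PRICKLE1 window, 2 times in that of SLITRK4 and 5 times in that of SULF2, and 45% of all windows hold it. The E-box CANNTG occurred 1 time in the SLITRK4 window and in neither of the others, and 68.7% of all windows hold it. The CCAAT box CCAAT (34.6% of all windows), the TATA box TATAAA (11.5%) and the AP-1 element TGANTCA (7.71%) occurred in none of the 3. The letters of none of these 5 motifs contain another of them.

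SPOCK1 (ENSG00000152377, GRCh38 chr5:136975298-137598379, minus strand) was the most abundant of the 4 in KO1 and KO3. It stood at 4.27, -0.58, 3.98 and 3.52 log2 RPKM in KO1, KO2, KO3 and KO4, against -2.47, -3.05 and -2.94 in WT1, WT2 and WT3. In reads this was 5865, 262, 4320 and 5013 in KO1 to KO4, against 63, 47 and 48 in WT1 to WT3. KO1, KO3 and KO4 were high, KO2 was intermediate, and no clone overlapped WT. KO1, KO2, KO3 and KO4 reached 136-, 4.72-, 112- and 81.0-fold of the WT mean. The KO2 level was still 3.70 times the highest WT library, and its 262 reads (exact 95% Poisson interval 231 to 296 reads) lie far from the 63 reads of WT1 (48.4 to 80.6). Such intervals cover counting error only.

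PRICKLE1 (ENSG00000139174, chr12:42456757-42590355, minus strand) followed the same order of clones at a lower level. It stood at 2.48, -1.52, 1.48 and 1.37 log2 RPKM in KO1 to KO4, against -4.15, -4.01 and -4.68 in WT1 to WT3. The reads were 2256, 182, 1010 and 1501 in KO1 to KO4, against 26, 32 and 19 in WT1 to WT3. Again KO2 lay between the other clones and WT, at 5.63 times the highest WT library. The 4 clones, in the order KO1 to KO4, reached 108-, 6.78-, 54.0- and 50.1-fold of the WT mean. KO3 and KO4 differed by less than the SD of 0.35 log2 units between the WT libraries. That SD comes from 19 to 32 reads per WT library and does not measure the spread at the KO3 and KO4 levels. In bulk RNA, a few KO2 cells at a high level and all KO2 cells at a low level cannot be told apart, for this gene as for SPOCK1.

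SLITRK4 (ENSG00000179542, chrX:143622790-143635777, minus strand) was on in 3 clones and showed no rise in KO2. It stood at 1.56, -7.95, 2.09 and 0.85 log2 RPKM in KO1 to KO4, against -6.58, -5.77 and -5.12 in WT1 to WT3. The reads were 1290, 2, 1675 and 1130 in KO1 to KO4, against 5, 10 and 15 in WT1 to WT3. Unlike SPOCK1 and PRICKLE1, it was highest in KO3. KO1, KO3 and KO4 were 168-, 242- and 102-fold of the WT mean. The 2 reads of KO2 have an exact 95% Poisson interval of 0.242 to 7.22 reads, which overlaps the intervals of WT1 (1.62 to 11.7) and WT2 (4.80 to 18.4) but not that of WT3 (8.40 to 24.7).

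SULF2 (ENSG00000196562, chr20:47656348-47786616, minus strand) was on in a different set of clones, KO1, KO2 and KO4. It stood at 2.45, 3.44, -5.16 and 4.87 log2 RPKM in KO1 to KO4, against -4.21, -3.75 and -4.44 in WT1 to WT3. The reads were 1780, 4580, 8 and 13738 in KO1 to KO4, against 20, 31 and 18 in WT1 to WT3. KO4 reached 29.3 RPKM, the highest level of any of the 4 genes in any library. KO1, KO2 and KO4 were 95.8-, 191- and 515-fold of the WT mean. KO3, which expressed the other 3 genes, had 8 SULF2 reads (3.45 to 15.8) in the smallest library. That interval overlaps those of WT1 (12.2 to 30.9) and WT3 (10.7 to 28.4). The WT2 interval (21.1 to 44.0) lies above it in raw reads, which are not scaled to library size. With 44.0 M reads in KO3 and 63.0 M in WT2, no difference is read from that gap.

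**Figure D1:**
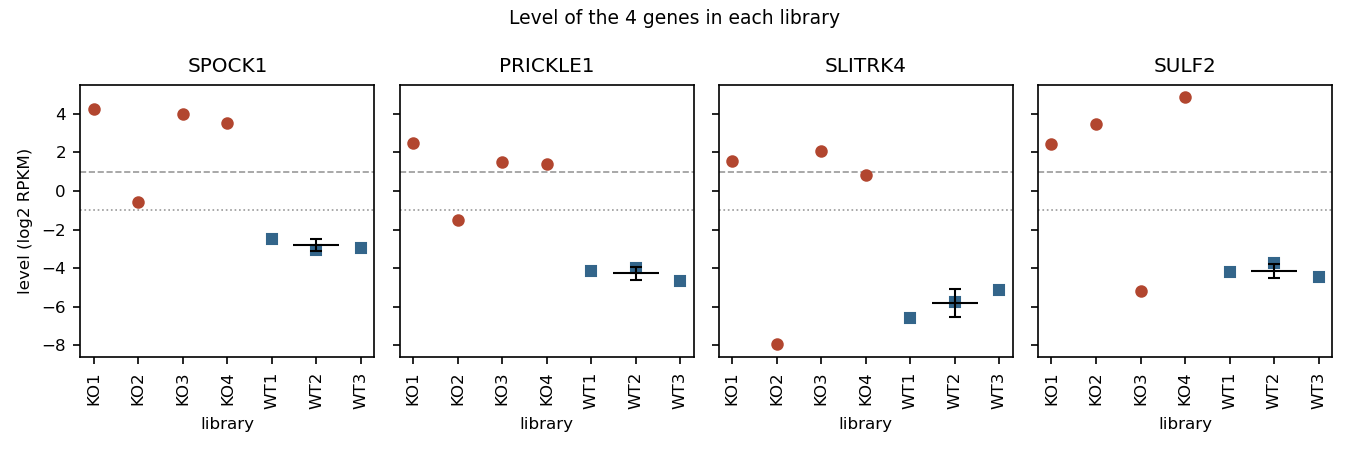
Level in log2 RPKM (vertical axis) of each gene in the 4 KO clones (red circles, 1 library each) and the 3 WT libraries (blue squares), with the WT mean and SD as a black bar. The dashed line marks 1 and the dotted line -1 log2 RPKM; KO2 is the lowest clone for SPOCK1, PRICKLE1 and SLITRK4, and KO3 for SULF2.

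As a mean over the clones the genes stood at 2.79 ± 2.27 (SPOCK1), 0.95 ± 1.72 (PRICKLE1), -0.86 ± 4.76 (SLITRK4) and 1.40 ± 4.49 log2 RPKM (SULF2; SD, n = 4 clones). The WT means were -2.82 ± 0.31, -4.28 ± 0.35, -5.83 ± 0.73 and -4.13 ± 0.36 in the same order (n = 3). The clones thus spread far more than the WT replicates, and the mean hides which clone carried the gene. The KO minus WT differences of 5.62, 5.23, 4.96 and 5.54 log2 units were of similar size for genes with different clone sets. For 2 of the 4 genes, SPOCK1 and PRICKLE1, all 4 clones lay above all 3 WT libraries. Over the 11154 genes tested 8.88% did so, and since the choice of members used this contrast nothing is read from the count.

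SPOCK1 and PRICKLE1, the 2 genes above WT in all 4 clones, ran in parallel with gaps that varied between libraries. Across the 7 libraries Pearson's r between SPOCK1 and PRICKLE1 in log2 RPKM was 0.99, and SPOCK1 exceeded PRICKLE1 by 1.78 log2 units in KO1, by 0.93 in KO2, by 2.503 in KO3, by 2.15 in KO4 and by 0.96 to 1.73 in WT. SLITRK4 had r = 0.91 with SPOCK1 and 0.86 with PRICKLE1, the departure lying in KO2. SULF2 had r = 0.48 with SPOCK1, 0.56 with PRICKLE1 and 0.19 with SLITRK4. These r values describe 7 points of which 3 are near-identical WT libraries and share them in every pair, and no test is attached. Between the extremes, SLITRK4 exceeded SULF2 by 7.26 log2 units in KO3 and lay below it by 11.4 in KO2 on the log2 RPKM scale, and the KO2 gap rests on the 2 SLITRK4 reads.

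To place these clone sets among all genes, a gene was called silent in WT when it was below -1 log2 RPKM (0.5 RPKM) in all 3 WT libraries, and on in a clone when it was at least 1 (2 RPKM). Of 1044 genes silent in WT, 96 (9.2%) were on in at least 1 clone, 33 (3.16%) in at least 2 and 12 (1.15%) in at least 3. SPOCK1 and PRICKLE1 were on in KO1, KO3 and KO4, SULF2 in KO1, KO2 and KO4, and SLITRK4 in KO1 and KO3. SLITRK4 in KO4, at 0.85, lay just under the threshold, and PRICKLE1 in KO4, at 1.37, just over it. With the threshold for on at 0, SLITRK4 joined SPOCK1 and PRICKLE1 in a set of 14 genes. With it at 2 these 3 genes no longer shared a set. PRICKLE1 was then on in KO1 alone and SLITRK4 in KO3 alone, while SPOCK1 and SULF2 kept their clones. Most genes switched on were private to a clone, 29 to KO1, 21 to KO2, 10 to KO4 and 3 to KO3.

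The set of KO1, KO3 and KO4 held 7 genes: SPOCK1, PRICKLE1, RFTN1 (raftlin, a lipid-raft protein), IGFBP7 (a secreted protein that binds insulin-like growth factors), GLI3 (a transcription factor of Hedgehog signalling), EVI2B and 1 unnamed transcript. IGFBP7 shared the intermediate KO2 level, at 2.56, 0.56, 2.12 and 1.02 log2 RPKM in KO1 to KO4, against -3.15, -2.66 and -2.51 in WT1 to WT3. RFTN1 shared the low KO2 level of SLITRK4, at 2.76, -3.37, 2.39 and 1.24 in KO1 to KO4, against -1.66, -1.28 and -1.09 in WT1 to WT3. The set of KO1 and KO3 held 5 genes, SLITRK4, MB21D2, the kinase gene STK32B, the xylosyltransferase GXYLT2 and the acyltransferase AGPAT3, and all 5 lay above WT in KO4 too without passing 1. The set of KO1, KO2 and KO4 held 4 genes, among them SULF2, CYSRT1 and GALNT12 (which starts mucin-type O-glycan chains).

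Sharing among the clones was uneven. KO1 had 58 genes on, KO2 31, KO3 17 and KO4 36. KO3 shared 13 with KO1, which is 76.5% of the KO3 genes and 22.4% of the KO1 genes. KO4 shared 23 with KO1, which is 63.9% of the KO4 genes and 39.7% of the KO1 genes. KO2 shared 6 with KO1 (19.4% of the KO2 genes and 10.3% of the KO1 genes), 2 with KO3 (6.45% and 11.8%) and 8 with KO4 (25.8% and 22.2%). KO3 and KO4 shared 8, which is 47.1% of the KO3 genes and 22.2% of the KO4 genes. All clones were compared with the same 3 WT libraries, so these shares are given without a test. In the other direction, of 9227 genes on in all WT libraries, 183 were silent in a clone, 94 of them in KO1 alone and 11 in KO1, KO3 and KO4 together.

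**Figure D2:**
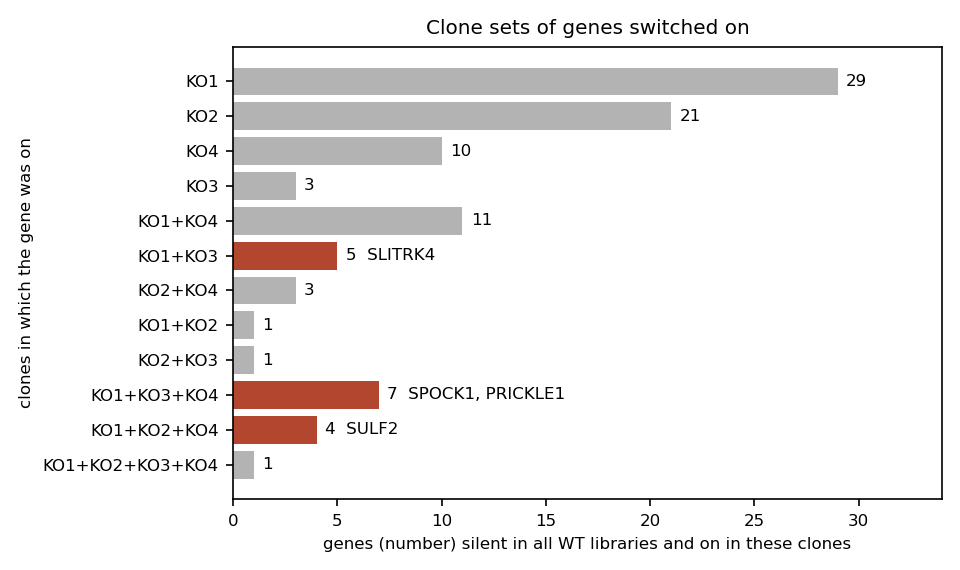
Number of genes (horizontal axis) that were below -1 log2 RPKM in all 3 WT libraries and at least 1 in exactly the KO clones named on the vertical axis. Red bars are the sets that hold SPOCK1 and PRICKLE1 (7 genes), SLITRK4 (5 genes) and SULF2 (4 genes); the largest sets belong to KO1 alone (29) and KO2 alone (21).

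The genes whose levels ran most like those of the 4 were sought among 1131 tested genes that varied by at least 2 log2 units over the 7 libraries. For SPOCK1 these were UCN2 (r = 0.99), a peptide hormone of the corticotropin-releasing family, LDOC1 (0.99), PRICKLE1 (0.99), PAPPA (0.99), a protease of insulin-like growth factor binding proteins, and COL7A1 (0.97), the collagen of anchoring fibrils. PRICKLE1 had the same neighbours, led by LDOC1 (0.99) and SPOCK1. The genes that are not members were expressed in WT at low or moderate level and stood highest in KO1, KO3 or KO4 and lowest among the clones in KO2. LDOC1, a retrotransposon-derived gene, stood at 5.21, 3.03, 4.81 and 4.52 log2 RPKM in KO1 to KO4, against 1.48, 1.22 and 1.62 in WT1 to WT3. COL7A1 stood at 4.08, 2.62, 3.31 and 3.57 in KO1 to KO4, against 1.84, 1.43 and 1.57 in WT1 to WT3. UCN2 lies 299 bases beyond COL7A1 on the same strand of chromosome 3. Reads that run past COL7A1 therefore cannot be told apart from UCN2 reads, with or without the strand of the counting.

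The opposite course was shown by SLC2A13, a myo-inositol transporter (r = -0.99 with SPOCK1 and -0.97 with PRICKLE1), and CLDN2, a tight-junction claudin (r = -0.99 with SPOCK1). CLDN2 stood at -4.75, 0.37, -4.20 and -4.29 log2 RPKM in KO1 to KO4, against 1.74, 1.57 and 0.98 in WT1 to WT3. It was near silent in the 3 clones that expressed SPOCK1 strongly, with 6, 8 and 12 reads in KO1, KO3 and KO4, while KO2 kept 278 reads, against 402 to 640 in WT. For SLITRK4 the most alike were PTPRU (r = 0.99), a receptor tyrosine phosphatase, RFTN1 (0.98), PID1 (0.97), WLS (0.97), the carrier that brings Wnt proteins to the cell surface, and FSD1 (0.97). The least alike were the tetraspanin TSPAN9 (-0.99) and DTX4 (-0.99), a ubiquitin ligase of the deltex family. WLS stood at 4.83, 2.85, 4.41 and 4.39 in KO1 to KO4, against 2.70, 2.85 and 2.98 in WT1 to WT3, so KO2 lay within WT.

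For SULF2 the most alike were RTP4 (r = 0.98) and TRIM22 (0.97), both known as interferon-induced, GALNT12 (0.98), CYSRT1 (0.97) and SLC2A12 (0.97), a sugar transporter. TRIM22 stood at 1.32, 1.30, -2.52 and 0.97 log2 RPKM in KO1 to KO4, against -2.08, -2.12 and -2.73 in WT1 to WT3. In KO3 it was within WT, the same clone in which SULF2 was near silent. The least alike were ADAMTS1 (-0.96), a secreted metalloproteinase, and TNFRSF4 (-0.96), a receptor of the tumour necrosis factor family. TNFRSF4 stood at -0.42, -1.17, 2.44 and -0.20 in KO1 to KO4, against 2.34, 2.01 and 2.35 in WT1 to WT3. How many of the 1131 genes reached r above 0.9 was 37 for SPOCK1, 48 for PRICKLE1, 26 for SLITRK4 and 14 for SULF2. All r values here describe 7 libraries and carry no test.

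**Figure D3:**
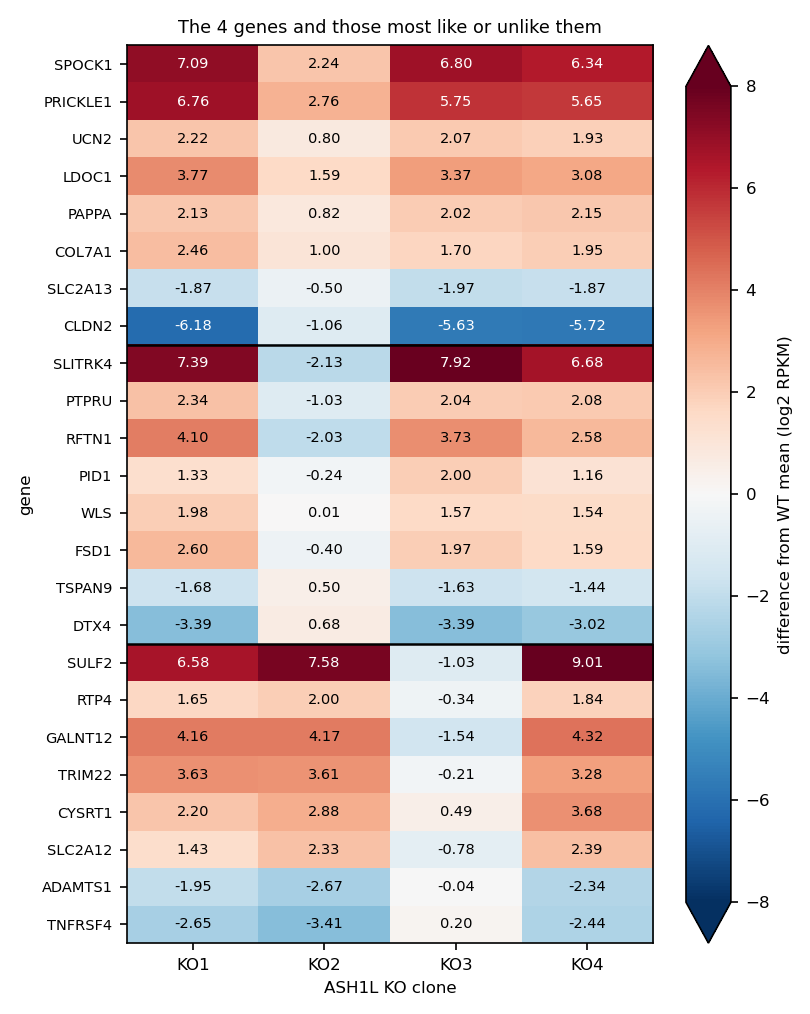
Difference of each KO clone (columns) from the WT mean in log2 RPKM (colour and printed value) for the 4 genes and for the genes most like or unlike them (rows); black lines separate the rows for SPOCK1 and PRICKLE1, for SLITRK4 and for SULF2. KO2 is the weak or opposite column in the upper blocks and KO3 in the lowest; the SLITRK4 value of -2.13 in KO2 rests on 2 reads.

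Genes that work with the members were then counted in 10 lists of 189 genes, of which 122 had values and 96 were tested. With the 4 clones as replicates against WT, limma called 46 of 11154 genes at an adjusted p under 0.05 (0.412%), 19 higher (0.17%) and 27 lower (0.242%); after median-centring 2 were called, both higher. None of the 96 list genes was called, 15 of the 96 (15.6%) had an unadjusted p under 0.05, beside 15.7% of all genes tested, and a count-based fit on recovered reads (limma voom) also called 0. Without KO2 the lists had 4 calls (MMP2, COL4A2, PTPRS and B3GALT6), without KO1 2 (COL4A1 and COL4A2) and without KO3 2 (CELSR3 and VGF). Over all 11154 genes those fits called 236 without KO2, 51 without KO1 and 87 without KO3. Against WT one clone at a time, 62, 41, 46 and 44 of the 96 were called in KO1 to KO4, which is 64.6%, 42.7%, 47.9% and 45.8%, beside 44.1%, 33.5%, 34.1% and 24.8% of all genes. In KO1 43.5% of all calls were higher than WT as deposited and 54.5% after median-centring. Those single-clone p-values take the spread from the WT libraries and are too small, since clones vary more, and all clones share the WT libraries.

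SPOCK2, SPOCK3 and SPARC did not share the pattern of SPOCK1. SPOCK2 was lower than WT in every clone, at -2.60, -2.71, -3.12 and -5.02 log2 RPKM in KO1 to KO4, against -1.50, -1.39 and -1.23 in WT1 to WT3; it failed the filter and was not tested. SPOCK3, also untested, stood at -2.07, 0.26, 0.67 and -1.32 in KO1 to KO4, against -1.32, -1.31 and -1.49 in WT1 to WT3, with KO2 among its higher clones. SPARC, the founding matrix protein of the family and the only 1 of 4 relatives with values that was tested, was called higher in KO1 (0.80) and KO4 (1.29) and lower in KO2 (-0.96) and KO3 (-0.66 log2 units against WT). Its KO against WT difference of 0.12 was not called and turned negative with the replicate block, without KO1 and without KO4. FSTL1, untested, was 3.77 log2 units above WT in KO1.

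Of the proteases and inhibitors linked to testicans, 7 of 10 with values were tested. In the order KO1 to KO4, 3, 4, 1 and 6 of them were called higher and 2, 2, 5 and 0 lower, beside 19.2%, 15.5%, 14.2% and 10.4% of all genes called higher and 24.9%, 18%, 19.9% and 14.4% lower. MMP2, the gelatinase whose activation testican-1 restrains, stood at 5.03, 1.03, 4.28 and 5.17 log2 RPKM in KO1 to KO4, against 2.33, 2.64 and 2.66 in WT1 to WT3. It thus rose in the 3 clones with high SPOCK1 (2.49, 1.73 and 2.62 log2 units in KO1, KO3 and KO4) and fell in KO2 by 1.52, each called by limma. MMP14, which activates MMP2, was called lower in KO2 (-0.86) and KO3 (-0.75). MMP16, another membrane-type activator, was not tested because of its low level and is named after its values were seen. It had 1303, 170, 588 and 758 reads in KO1 to KO4, against 12, 21 and 17 in WT1 to WT3. KO2 was again its lowest clone. MMP15 and MMP24, also untested and named after their values were seen, were instead highest in KO2. They stood there at 1.03 and 2.61 log2 units from WT, and in KO4 at -1.02 and -1.04. TIMP2, an inhibitor that also takes part in MMP2 activation, was called higher in KO1 (1.70), KO2 (0.63) and KO4 (1.47) and lower in KO3 (-0.45). CTSL, the cathepsin that testicans inhibit, was called higher in KO2 (1.50) and KO4 (0.57) and lower in KO3 (-0.82).

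Heparan sulfate genes bear on SULF2 and on SPOCK1, whose protein carries such chains. Of the listed genes of chain synthesis and editing, 18 were tested. The median differences from WT were 0.17, 0.04, 0.02 and 0.32 log2 units in KO1 to KO4, beside 0.00, -0.01, -0.02 and -0.01 over all genes tested. SUMF1, the enzyme that activates sulfatases including SULF2, was called higher in KO1 (1.31), KO2 (0.98) and KO4 (0.79), the clones with SULF2, and stood at -0.05 in KO3. HS6ST1, which adds sulfate groups of the kind SULF2 removes, was called higher in KO2 (1.40), KO3 (1.41) and KO4 (0.94) and stood at 0.02 in KO1. HS6ST2 of the same family was called lower in KO2 (-0.84) and KO4 (-0.88), and B3GALT6, a linker galactosyltransferase, higher in KO1 (0.72), KO3 (0.52) and KO4 (0.65).

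The 9 tested genes of proteins that carry the chains had medians of -0.44, 0.01, -0.21 and 0.10 log2 units from WT in KO1 to KO4. Over all genes tested the medians were 0.00, -0.01, -0.02 and -0.01. GPC6, a glypican, lay below WT in all 4 clones and was called in KO1 (-0.46), KO3 (-0.64) and KO4 (-0.72). TGFBR3 (betaglycan) was called lower in KO1 (-2.67), KO3 (-0.47) and KO4 (-1.16), the 3 clones with high SPOCK1, and stood at -0.26 in KO2. SDC3, a syndecan, was called higher in KO1 (0.39), KO3 (0.66) and KO4 (1.12). COL18A1 was called in KO1 only (-0.44) among these 4 comparisons, which is no test that the clones differ.

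PRICKLE1 differed more from WT than any tested gene of its pathway list did. Since PRICKLE1 was chosen for its levels, that ranking restates the choice. The 17 tested planar cell polarity genes had medians of 0.35, 0.25, 0.27 and 0.29 log2 units from WT in KO1 to KO4. Over all genes tested the medians were 0.00, -0.01, -0.02 and -0.01. PRICKLE3, the relative with a value, stood at 1.67, 1.93, 2.00 and 2.59 log2 RPKM in KO1 to KO4, against 2.44, 2.40 and 2.67 in WT1 to WT3, and was called lower in KO1, KO2 and KO3. CELSR3, a large cadherin of the pathway and also listed as a REST target, was called higher in each of the 4 clones (0.90, 1.13, 0.71 and 1.28 in KO1 to KO4). Its KO against WT difference was 1.00 ± 0.18 log2 units (SE; adjusted p = 0.0747, limma), just short of the threshold. FZD6, a Frizzled receptor, was called higher in KO1 (0.40), KO2 (0.53) and KO4 (0.74), DAAM1, a formin, in KO1 (0.87), KO2 (0.73) and KO4 (0.88), and DVL2, a Dishevelled adaptor, in KO3 (0.49). PTK7, a receptor-like pathway protein that was not tested and is named after its values were seen, had 1080, 361, 722 and 545 reads in KO1 to KO4, against 68, 78 and 103 in WT1 to WT3.

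The 12 tested genes of the REST corepressor list had medians of -0.01, 0.06, 0.00 and 0.15 log2 units from WT in KO1 to KO4. Over all genes tested the medians were 0.00, -0.01, -0.02 and -0.01. REST stood at 2.58, 2.30, 2.31 and 2.32 log2 RPKM in KO1 to KO4, against 2.07, 2.16 and 2.23 in WT1 to WT3. EHMT1 was called higher in KO1 (0.62) and KO2 (0.47), KDM1A in KO1 (0.31) and KO3 (0.46), and HDAC1 lower in KO1 (-0.45). Of 7 tested REST target genes, which are mostly neuronal, 1, 1, 1 and 3 were called higher and 2, 5, 5 and 2 lower in KO1 to KO4, beside 19.2%, 15.5%, 14.2% and 10.4% of all genes called higher and 24.9%, 18%, 19.9% and 14.4% lower. VGF, a neuroendocrine secretory protein, was called lower in every clone (-2.35, -2.38, -0.81 and -2.60), as was STMN2, a neuronal microtubule regulator (-4.16, -0.98, -2.74 and -1.66). STMN3 was called lower in KO2 (-0.63) and KO3 (-1.60). CELSR3 was the single gene of this list called higher in KO1, in KO2 and in KO3.

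Among the relatives and partners of SLITRK4, 11 of 26 listed genes had values and 6 were tested. In KO1 to KO4 the medians of those 6 were 0.10, -0.24, 0.31 and 0.47 log2 units from WT. Over all genes tested they were 0.00, -0.01, -0.02 and -0.01. The paralog SLITRK6, untested for its low level, stood at 3.32, -6.91, -0.75 and 3.10 log2 RPKM in KO1 to KO4, against -5.07, -3.90 and -3.74 in WT1 to WT3. It passed the level of 1 in KO1 and KO4; KO3 lay above WT but below that level, and KO2 lay below WT, as it did for SLITRK4. SLITRK1 stood at -2.34, -0.02, -0.49 and 0.48 in KO1 to KO4, against -1.55, -1.49 and -0.78 in WT1 to WT3, and SLITRK5 at -1.24, -4.19, -0.38 and -1.55, against -1.36, -1.51 and -1.52. PTPRS, a receptor phosphatase bound by this family, was called higher in KO1 (1.01), KO3 (0.83) and KO4 (0.79), the clones with SLITRK4, and stood at -0.30 in KO2. FLRT2 was called higher in all 4 clones (0.76, 1.51, 0.50 and 1.21). FLRT3 had 0, 1488, 313 and 129 reads in KO1 to KO4, against 1031, 1076 and 622 in WT1 to WT3. ROBO1, a receptor of Slit proteins, was called lower in KO1 (-0.56) and KO4 (-1.03).

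Wnt and TGF-beta target genes were listed because PRICKLE1, SULF2 and SPOCK1 are linked to these pathways. The 7 tested Wnt targets had medians of -0.03, 0.03, 0.02 and -0.05 log2 units from WT in KO1 to KO4. Over all genes tested the medians were 0.00, -0.01, -0.02 and -0.01. TNFRSF19 was called higher in KO1 (1.74), KO3 (1.17) and KO4 (2.34) and lower in KO2 (-0.89), RNF43 was called lower in KO1 (-4.15) and KO4 (-0.76), PORCN was called higher in KO4 (0.87), and DKK1 was called in no clone. Of 13 tested TGF-beta targets, 7, 5, 4 and 8 were called higher and 1, 2, 5 and 0 lower in KO1 to KO4, against the same 19.2%, 15.5%, 14.2% and 10.4% and 24.9%, 18%, 19.9% and 14.4% of all genes. The basement-membrane collagens COL4A1 (2.84, 1.42, 1.74 and 1.30) and COL4A2 (2.38, 1.23, 1.53 and 1.48) were called higher in KO1 to KO4 alike. Over the clones COL4A2 differed from WT by 1.65 ± 0.26 log2 units (SE; adjusted p = 0.0538, limma). PMEPA1 was called higher in KO1 (4.76), KO3 (1.45) and KO4 (4.20), and CTGF lower in KO1 (-0.60), KO2 (-0.53) and KO3 (-1.37).

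**Figure D4:**
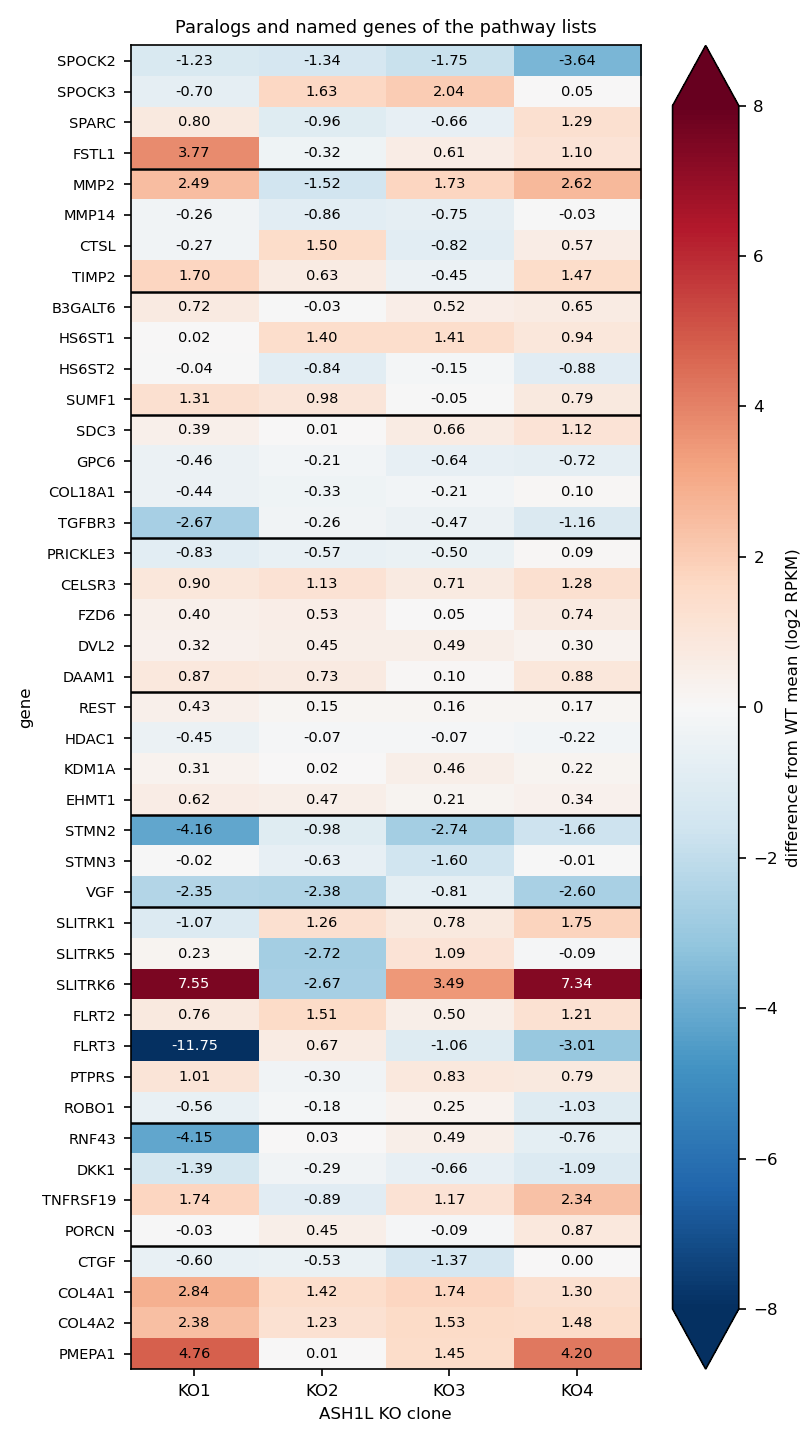
Difference of each KO clone (columns) from the WT mean in log2 RPKM (colour and printed value) for the paralogs of the 4 genes and the named genes of the 10 lists (rows, black lines between lists). SLITRK6 is above WT in KO1, KO3 and KO4 and below it in KO2; the FLRT3 value of -11.75 in KO1 comes from 0 reads and depends on the prior count.

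The members, chosen for their large rise in several clones, differed from most genes around them, and that contrast restates the choice. Within 1 Mb of SPOCK1 lay 14 genes of the table, and the nearest, KLHL3, 19.1 kb upstream, was at -0.39, 1.50, -0.31 and 1.43 log2 units from the WT mean in KO1 to KO4, a different clone order from SPOCK1. The next, HNRNPA0, 147 kb upstream, was at 0.71, 0.06, 0.16 and 0.37, and the nearest below, SMAD5 and TGFBI, at 0.07, 0.07, -0.41 and 0.29 and at 0.54, 0.42, -0.58 and 0.73. Over the 80 tested genes within 5 Mb of SPOCK1 the medians were 0.14, -0.10, -0.38 and 0.09 in KO1 to KO4. The 4 table genes within 1 Mb of PRICKLE1 lay between -0.51 and -0.02 in every clone, and the medians over 17 tested genes within 5 Mb were -0.51, -0.24, -0.30 and -0.27. The nearest below, ZCRB1 (131 kb), was at -0.36, -0.18, -0.40 and -0.21, and the nearest above, PUS7L (1129 kb) and IRAK4 (1169 kb), lay between -0.49 and 0.00. PPHLN1 overlaps PRICKLE1 by 2959 bases on the opposite strand and was at -0.30, -0.37, -0.18 and -0.34, so the overlapping gene showed no such rise. An antisense transcript with no value in the table overlaps PRICKLE1 by 6763 bases and another overlaps SULF2 by 8397 bases. Reads of such pairs cannot be told apart without the strand of the counting, which no source used here gives.

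SLITRK4 had no other gene of the table within 1 Mb. The nearest on the downstream side were MAGEC1, 1713 kb away, at -1.99, -0.09, 0.93 and 0.39 log2 units from WT in KO1 to KO4, and LDOC1, 2446 kb away, at 3.77, 1.59, 3.37 and 3.08. LDOC1 is the same gene that ran most like PRICKLE1. On the upstream side FMR1 (4276 kb) was at 0.23, 0.24, -0.02 and 0.33. FTH1P8 (4416 kb) was at -1.15, 0.47, -1.39 and -0.96, but it is a ferritin pseudogene whose reads may be shared with its parent gene. Near SULF2, NCOA3 overlaps it by 530 bases on the opposite strand and was at 0.17, 0.73, -0.43 and 0.52. PREX1, 838 kb upstream, was at -0.69, 4.20, 0.82 and 2.51 with the highest values in KO2 and KO4 and the lowest in KO1. ZMYND8 (299 kb) stayed between -0.43 and 0.14, ARFGEF2 (1135 kb) between -0.31 and 0.87, and the medians over 61 tested genes within 5 Mb of SULF2 were 0.15, 0.18, -0.31 and 0.17.

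**Figure D5:**
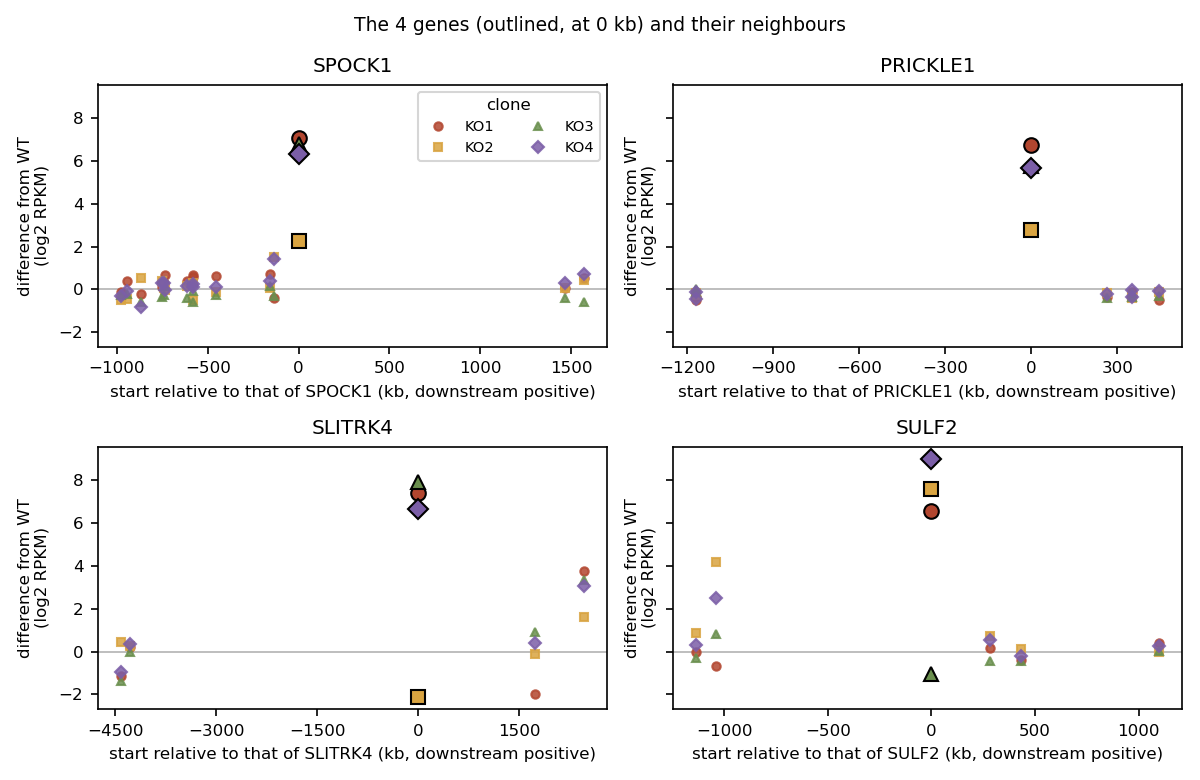
Difference of each KO clone from the WT mean in log2 RPKM (vertical axis) for each of the 4 genes (outlined symbols at 0 kb) and neighbouring genes of the table (plain symbols), by the distance between transcript starts in kb (horizontal axis, downstream positive). LDOC1 near SLITRK4 (3.77 in KO1) and PREX1 near SULF2 (4.20 in KO2) are the neighbours farthest from 0.

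Markers of cell identity were set beside these levels. All 5 epithelial markers (KRT8, KRT18, KRT19, EPCAM and CDH1) had values, with a summed level of 233 to 576 RPKM in the clones and 487 to 583 RPKM in WT. Within that list CDH1, which encodes E-cadherin, was below WT in the 3 clones with high SPOCK1 and above WT in KO2: it had 5, 1524, 59 and 61 reads in KO1 to KO4, against 584, 667 and 512 in WT1 to WT3. KRT8, KRT18 and KRT19 were lowest in KO1 and KO3, and KRT18 lay below WT in all 4 clones. EPCAM went another way, below WT in KO1 and KO4 and above it in KO2 and KO3. It stood at 1.71, 3.88, 3.19 and 1.85 log2 RPKM in KO1 to KO4, against 2.95, 3.04 and 2.85 in WT1 to WT3. Of 7 thyroid markers only PAX8 had a value, 0.0309 to 0.437 RPKM in the clones and 0.128 to 0.213 in WT, so the thyroid origin on the label could not be checked from them. Fibroblast markers COL1A1 and LUM (2 of 7) summed to 20.4 to 65.0 RPKM in the clones and 41.1 to 45.7 in WT, highest in KO3. Neuronal markers SYT1 and STMN2 (2 of 6) summed to 5.51 to 13.8 RPKM in the clones and 16.8 to 19.5 in WT, leukocyte markers CD14 and ITGAM (2 of 5) to 0.670 to 2.46 and 1.26 to 1.85, and the endothelial marker PECAM1 (1 of 4) was at 0.0503 to 0.720 and 0.275 to 0.325. The part of these differences in the levels of the 4 genes was not tested.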

How the data were processed

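RNA-seq libraries of 4 ASH1L KO clones and 3 WT replicates of BHT-101 cells were analysed. The authors deposited log2 RPKM values for 13142 genes. The submitters' processing notes name build hg38 and 4 tools: HTSeq 0.11.2, edgeR, STAR 2.5.3a and Trim Galore 0.4.1. No source used here gives their annotation, strand setting or prior count.

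Positions and exon lengths came from GENCODE release 29 (12304 genes, 93.6%, matched by symbol to a single position). With those lengths the level of genes without reads fixed a prior count of 0.25, and 94.2% of values then came out as whole reads within 0.1. This recovery rests on the GENCODE lengths. It gave effective library sizes with a mean of 58.0 M reads, so 1 RPKM of a 1 kb gene stands for about 58.0 reads. Intervals of reads are exact Poisson intervals.

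Genes above 0 log2 RPKM in at least 3 of the 7 libraries (11154) were fitted with limma 3.58.1 in R 4.3.3 (trend, Benjamini-Hochberg, adjusted p under 0.05), for KO against WT and with each clone as its own group, where the spread comes from WT alone. The procedure was tested on simulated data. Replicate numbers did not pair the samples.

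The members and the gene lists were chosen with earlier results of these data known, so no list serves as independent support. Named genes were the members, their paralogs, up to 4 genes per list by smallest unadjusted p, the 5 most and 2 least correlated genes per member, the nearest 2 genes on each side, and up to 6 genes per clone set. Exceptions are stated. Alternatives covered scaling, filter, trend, pseudocount, level thresholds, a replicate block, recovered reads and leaving out each library. Python 3.11.15 with pandas 2.3.3 and matplotlib 3.10.9 was used for the rest. A gene of the clone-set listing is not reported here.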

Additional observations from a re-analysis of the deposited data

Results flagged for a closer look

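Among 83 named genes, 13 had a clone whose gap to the nearest other clone exceeded Dixon's 95% critical share of the range of 4 values. Chance gives such a gap in about 1 in 20 groups of values. Since SPOCK1 and SLITRK4 were chosen for their levels in these clones, their gaps restate that choice. KO2 stood apart for SPOCK1, at -0.585 log2 RPKM, with the other clones at 3.52 to 4.27 and WT at -3.05 to -2.47. KO2 was also the low clone for SLITRK4, at -7.95 from 2 reads, here below WT rather than above it, with the other clones at 0.85 to 2.09 and WT at -6.58 to -5.12. PRICKLE1 had the same order of clones as SPOCK1, but its KO2 gap stayed under the limit.

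KO2 also stood apart for genes picked because they run like or unlike these members, so their gaps repeat the same pattern. It was at -0.172 for PAPPA (other clones 1.03 to 1.16), -0.587 for PTPRU (2.48 to 2.78), 0.368 for CLDN2 (-4.75 to -4.20), 0.00983 for SLC2A13 (-1.46 to -1.36), 1.48 for DTX4 (-2.60 to -2.23) and 2.77 for TSPAN9 (0.60 to 0.83). KO3 stood apart for genes picked for likeness to SULF2, at -4.48 for GALNT12 (other clones 1.22 to 1.38), -2.52 for TRIM22 (0.97 to 1.32) and -0.476 for RTP4 (1.51 to 1.86). SULF2 itself was below the limit, since its 3 high clones are spread widely.

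The remaining genes were a REST target and REST itself. VGF was at 3.50 in KO3, with the other clones at 1.71 to 1.95 and WT at 4.19 to 4.52. REST was at 2.58 in KO1, with the other clones at 2.30 to 2.32 and WT at 2.07 to 2.23.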

How the results depend on the processing

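Under median-centring, quantile normalization, a pseudocount of 0.1 or 1 and leaving out each library, the KO minus WT differences of the 4 genes stayed positive. Since the members were chosen for large rises in several clones, that sign restates the choice. Leaving out a library gave 5.13 to 6.74 for SPOCK1, 4.72 to 6.05 for PRICKLE1, 3.98 to 7.33 for SLITRK4 and 4.38 to 7.72 for SULF2. A pseudocount of 1 lowered SPOCK1 to 3.00, PRICKLE1 to 1.65, SLITRK4 to 1.44 and SULF2 to 2.72, because it lifts the low WT levels. The 96 genes on in a clone became 37 with silence below -2, 238 with on at 0 and 33 with on at 2. The 46 genes called between KO and WT became 2 after median-centring, 75 with a pseudocount of 1 and 29 with voom on recovered reads (an alternative added after seeing the data), and 0 to 236 when a library was left out; 236 came without KO2, 87 without KO3, 1 without KO4, 51 without KO1 and 0 when any 1 of the WT libraries was left out. The counts of single clones without a library ran from 3088 to 5833 (KO1), 1743 to 4867 (KO2), 1706 to 4906 (KO3) and 1153 to 3972 (KO4), lowest without WT2. After median-centring 54.5% of the KO1 calls were higher, against 43.5% as deposited. Calls among the list genes went from 0 to 1 without the filter (MMP16), to 1 with a pseudocount of 0.1 and to 1 with a pseudocount of 1 (COL4A2 each), and lay at 0 to 4 when a library was left out. The cause was not tested.

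With the replicate number as a block, over 3 numbers shared by KO and WT, 0 genes were called (KO4 has no WT number to pair with and does not bear on that contrast) and 1206 had an unadjusted p under 0.05. The deviations of same-numbered libraries correlated at 0.060, 0.066 and -0.012, so the samples share only a number. Reads limit the SLITRK4 value of KO2 and the SULF2 value of KO3.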
